A study of Mus musculus with 10 samples.

Results

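The subject is Taf4b and the subunits of the transcription factor TFIID that exist as paralogues, with the relatives of the TATA-binding protein: Taf4b, Taf4, Taf12, Taf7, Taf7l, Taf9, Taf9b, Tbp, Tbpl1 and Tbpl2. These 10 genes of 55536 in the count table were taken by symbol and matched by gene identifier. The rule used names only, but the names were chosen with earlier results of these data known. TFIID is the general factor that recognises core promoters and starts assembly of the RNA polymerase II machinery. It is built from the TATA-binding protein TBP and a set of TBP-associated factors (TAFs), several of which pair through histone folds, as TAF4 or TAF4b does with TAF12. Some subunits have a gonad-enriched or germline paralogue that can replace the widely expressed form, and TAF4b is the one known for its requirement in mouse oocytes and the ovarian reserve.

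RNA was sequenced from mouse oocytes of E16.5 embryos, a stage at which female germ cells are in meiotic prophase, in 5 Taf4b-heterozygous and 5 Taf4b-deficient libraries of strain C57BL/6. The parents were heterozygous for the Taf4b-deficiency mutation and homozygous for an Oct4-EGFP transgene (stock B6;129S4-Pou5f1tm2Jae/J), so that all libraries of both genotypes carry this reporter and none is wild type at Taf4b. Which part of Taf4b the mutation removes is not given in the sources used here. Cells were sorted as GFP-positive after propidium iodide had marked dead cells, and litters were collected on 3 dates. Heterozygous 1 and 2 and deficient 1 share litter date 1, heterozygous 3 and 4 and deficient 2 and 3 share litter date 2, and heterozygous 5 and deficient 4 and 5 share litter date 3. Whether libraries were made from separate embryos is not said in the labels. All p-values therefore refer to the spread between these libraries, which may be technical.

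Total counts ran from 16707216 to 26983565 per library. The summed level of 7 germ cell markers was 4755 to 8013 CPM in heterozygous libraries, where CPM is the count relative to the scaled library total, and 4082 to 6780 CPM in deficient ones, against 30.4 to 86.9 and 26.1 to 84.4 CPM for 7 pregranulosa markers. All markers of the 10 lists had counts, and the other somatic lists lay at or below 122 CPM, apart from the erythroid list. Its 6 genes summed to 719 CPM in heterozygous 4, 2083 in heterozygous 5 and 1605 in deficient 5, and to 65.0 to 220.2 CPM in the other 7 libraries. These 3 libraries are called globin-high. In heterozygous 4 and 5 the summed level of 6 oocyte growth markers was also high, at 611 and 1233 CPM, against 151 to 248 CPM in the other 8 libraries, deficient 5 included.

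Levels were compared between genes only per length, as TPM (a gene's count per exon base relative to the sum over all genes) recomputed from the counts and the summed exon length of each gene. The deposited TPM table could not serve for this. Up to a scaling factor per library, its values equalled the count divided by a rank and not by the exon length. The rank is that of the length when lengths are sorted as text. This held for all 44767 genes with a count, to within 0.1% in every library. The members were compared relative to the median gene of each library. For 8 of the 10 genes the rank happens to track the length. Their deposited value was, on that relative scale, between 0.977 and 1.03 times what the length gives. For Tbpl2 it was 1.29 times. For Tbp, whose 13576 exon bases sort at rank 1218 of 9596 lengths, it was 13.3 times. The TPM values themselves differ by other factors, since each table is scaled to its own sum. In heterozygous 1, Taf4b was at 58.0 deposited and 136 recomputed TPM, and Tbp at 126 and 23.1.

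Taf7l had by far the highest level per length, with a median of 1489 TPM over the 10 libraries, followed by Taf9b at 188, Taf7 at 132, Taf12 at 113, Taf4b at 44.1, Tbpl1 at 37.9, Tbp at 23.2, Taf4 at 4.75 and Taf9 at 0.402 TPM, with Tbpl2 at a median of 0. The ranges over libraries did not overlap between Taf7l and Taf9b, between Tbp and Taf4, or between Taf4 and Taf9. The place of Taf9 is that of its counts only and cannot be read as its transcript level, as described with its values. For the other neighbours the ranges overlapped. Within single libraries Taf9b still exceeded Taf7 in 10 of 10 and Tbpl1 exceeded Tbp in 10 of 10, although the place of Tbp depends on the length assigned to it, as described with its values. Taf7 exceeded Taf12, Taf12 exceeded Taf4b and Taf4b exceeded Tbpl1 in 8 of 10 libraries each. Germline-type paralogues thus stood above their widely expressed partners in the TAF4 and TAF7 pairs, by TPM, in every library.

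**Figure D1:**
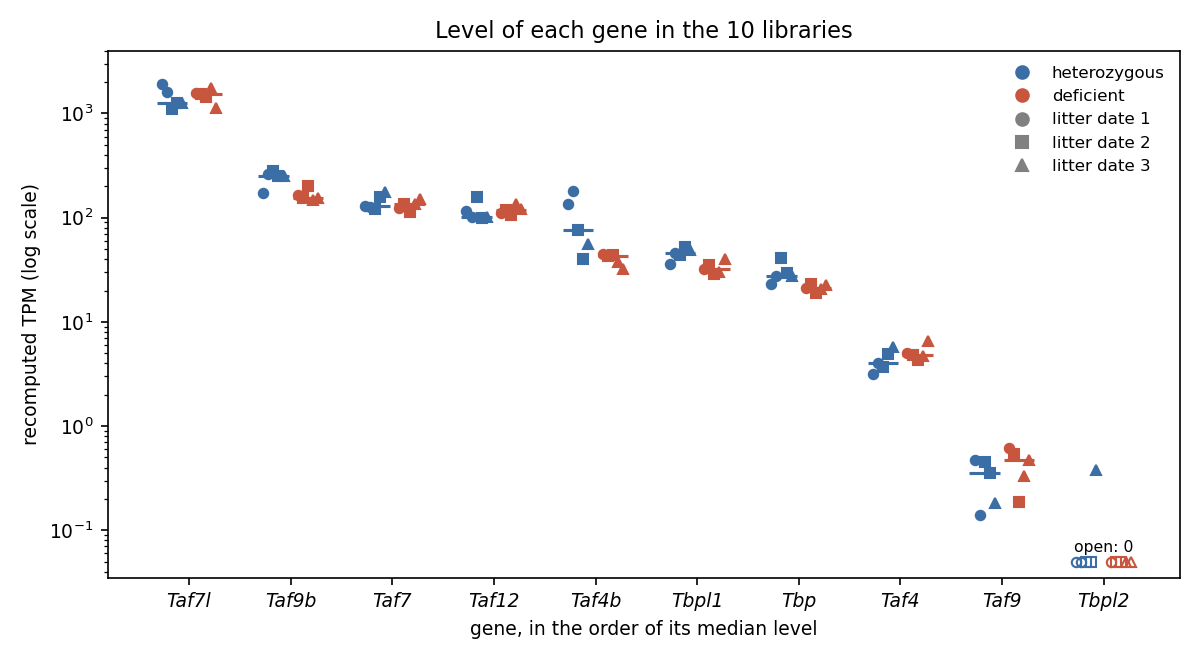
Recomputed TPM (log axis) of each gene in each library, by genotype (colour) and litter date (shape), with the median per genotype as a line; libraries at 0 are drawn open at the bottom. Taf7l lies between 1101 and 1935 TPM, Taf4 between 3.17 and 6.58 TPM, and Tbpl2 is above 0 in 1 library only.

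Between genotypes, edgeR's quasi-likelihood test with Benjamini-Hochberg adjustment over 19244 genes called none at 0.05, which is 0% of the genes and 0 of the 8 members tested; 3190 genes, 16.6%, had an unadjusted p under 0.05. DESeq2, run as an alternative, called 649 genes. Taf9 and Tbpl2 did not pass the expression filter. Of the 8 tested members, 4 had an unadjusted p under 0.05, and all of these were lower in deficient libraries: Taf4b, Taf9b, Tbp and Tbpl1. The share of all genes that were lower at that threshold was 9.13%, and that of genes higher 7.45%. The members' median log2 fold change was -0.20, against -0.02 over all genes tested.

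**Figure D2:**
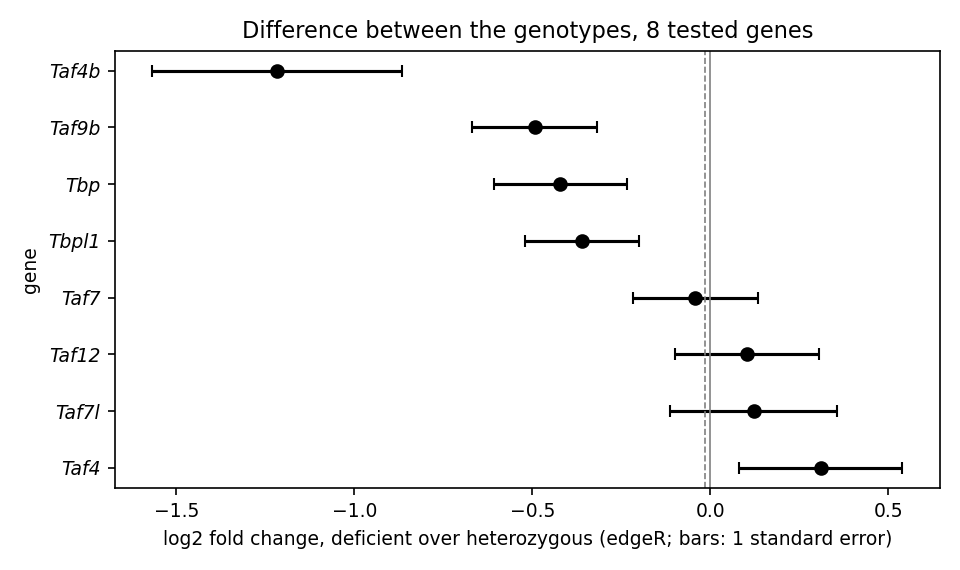
Log2 fold change of deficient over heterozygous libraries for the 8 tested genes, from edgeR, with bars of 1 standard error; the dashed line is the median of all genes tested. Taf4b stands lowest at -1.22, Taf9b, Tbp and Tbpl1 lie between -0.49 and -0.36, and Taf4 is the highest at 0.31.

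Taf4b, the targeted gene, encodes the gonad-enriched TAF4 form and spans chromosome 18 from 14783245 to 14900359 on the plus strand (GRCm38). It was at 271, 290.2, 142, 65.7 and 101 CPM in heterozygous 1 to 5. In deficient 1 to 5 it was at 80.7, 81.7, 80.2, 73.7 and 58.2 CPM. The deficient libraries were alike and all lay below 4 of the 5 heterozygous ones, but heterozygous 4 lay within their range, so the genotypes overlapped. Counts over Taf4b were therefore lower but not lost in the deficient libraries, with 1323 to 1737 counts per library. The log2 fold change was -1.22 ± 0.35 (SE, 5 libraries per genotype), a 2.32-fold higher level in heterozygous libraries. Its adjusted p was 0.155 in edgeR's quasi-likelihood test, and it ranged from 0.0343 to 0.961 over 25 alternative fits. In bulk RNA of sorted cells, fewer cells of a type and less RNA per cell cannot be told apart.

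The difference in Taf4b was uneven over the litter dates. Within litter date 1 the log2 CPM difference was -1.79, from heterozygous libraries at 271 and 290.2 CPM, within litter date 2 it was -0.25 and within litter date 3 it was -0.62. These within-date values rest on 1 or 2 libraries per genotype and have no test. With litter date in the edgeR model the Taf4b log2 fold change was -0.81 (adjusted p = 0.147), and without litter date 1 it was -0.48 (adjusted p = 0.377). Taf4b was lower in the globin-high heterozygous 4 and 5 than in the other heterozygous libraries, and lower in deficient 5 than in the other deficient ones. Without these 3 libraries its log2 fold change was -1.56 (adjusted p = 0.285 in edgeR's quasi-likelihood test). Leaving out heterozygous 4 and 5, the lowest of their genotype for Taf4b, raises the heterozygous mean, so this wider gap is no separate result. Both are also the libraries with high oocyte growth markers, and their part in the difference was not tested.

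Single genes of the meiotic and oocyte growth marker lists were set beside Taf4b. Stra8, which is needed for entry into meiosis, was at 965, 221, 237, 56.3 and 10.3 CPM in heterozygous 1 to 5 and at 629.7, 415, 447, 882 and 156 CPM in deficient 1 to 5. Sohlh1, a regulator active as follicles form, was at 0.192, 9.30, 7.18, 149 and 231 CPM in heterozygous 1 to 5 and at 0.836, 0.736, 0.419, 0.858 and 1.58 CPM in deficient 1 to 5. The globin-high libraries thus had the lowest Stra8 and the highest Sohlh1 of their genotype, as well as the lowest Taf4b. Sohlh1 did not exceed 1.58 CPM in any deficient library, so stage and genotype cannot be told apart in it. The summed marker lists did not all go the same way. Deficient 5, with 36 counts of Sohlh1, had the lowest oocyte growth sum of all libraries, 151 CPM. Its meiotic sum of 2842 CPM was above deficient 3 at 2398. Heterozygous 5 at 2532 was above heterozygous 2 at 2472, while heterozygous 4 was the lowest of its genotype at 2140. Over the 10 libraries with genotype means removed, the Pearson correlation with Taf4b in log2 CPM was 0.72 for Stra8, 0.60 for Rec8, -0.80 for Nobox and -0.81 for Sohlh1. Without removing the means it was 0.18, 0.06, 0.06 and -0.08. These 4 genes were picked from the marker lists, the other genes of those lists are not shown, and the libraries share litter dates. The relation did not hold inside each group of libraries. Among deficient 1 to 4, Stra8 was highest in deficient 4, where Taf4b was lowest at 73.7 CPM. The part of stage in the Taf4b difference between genotypes was not tested.

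For Taf4b, the authors' deposited table lists -1.29 on the log2 scale (adjusted p = 0.000152). It was the only member with an adjusted p under 0.05 there, in a table that called 1172 of 17881 genes with an adjusted p, or 6.55%, and 600 of them, 3.36% of the genes, as lower. By the deposited TPM the genotypes did not overlap for Taf4b, with 19.6 as the lowest heterozygous and 18.6 as the highest deficient value. This was so, in the lower direction, for 1.9% of the 13423 genes with a deposited TPM of at least 1 in 5 libraries. By TPM recomputed with the exon lengths the genotypes overlapped, with 40.4 TPM in heterozygous 4 and up to 44.4 TPM in deficient libraries, as they did by CPM.

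Taf4, the widely expressed paralogue on chromosome 2 (179912152 to 179976646, minus strand, GRCm38), was low in all libraries. Its levels were 5.65, 5.86, 6.23, 7.24 and 9.39 CPM in heterozygous 1 to 5. The deficient libraries had 8.27, 8.22, 7.07, 8.35 and 10.7 CPM, within a range that overlapped the heterozygous one. The log2 fold change was 0.31 ± 0.23 (adjusted p = 0.511 in edgeR's quasi-likelihood test), so a higher Taf4 in deficient libraries was not established. The globin-high libraries had the highest Taf4 of their genotype in both genotypes. The part of their erythroid signal in these values was not tested.

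Within each library, the ratio of Taf4b to Taf4 in TPM was 43.0, 44.5, 20.5, 8.15 and 9.65 in heterozygous 1 to 5. In deficient 1 to 5 it was 8.76, 8.92, 10.2, 7.92 and 4.89. Both heterozygous libraries of litter date 1 stood above 40 and the globin-high heterozygous 4 and 5 lay among the deficient libraries. The mean log2 ratio was lower by 1.32 in deficient libraries, with an exact two-sided permutation p of 0.0635 over the 252 arrangements of the libraries and 0.238 after Benjamini-Hochberg adjustment over 5 ratios. The smallest p this design allows is 0.00794. Without the globin-high libraries the difference was -1.92 (exact permutation p = 0.0286, the smallest that 3 against 4 libraries allow, adjusted 0.143). Heterozygous 4 and 5, left out there, had the lowest ratios of their genotype, so this wider gap is no separate result. Over 15 alternatives the adjusted permutation p ranged from 0.0794 to 0.397. The summed TPM of the pair was 45.4 to 183 in heterozygous libraries and 38.7 to 49.5 in deficient libraries, and Taf4b made up 89.1% to 97.8% and 83.0% to 91.1% of it. No other annotated transcript was as much as 90% identical to Taf4b or Taf4 over 100 bases or more, and the pair shared 67.7% identity over their best 576 aligned bases.

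**Figure D3:**
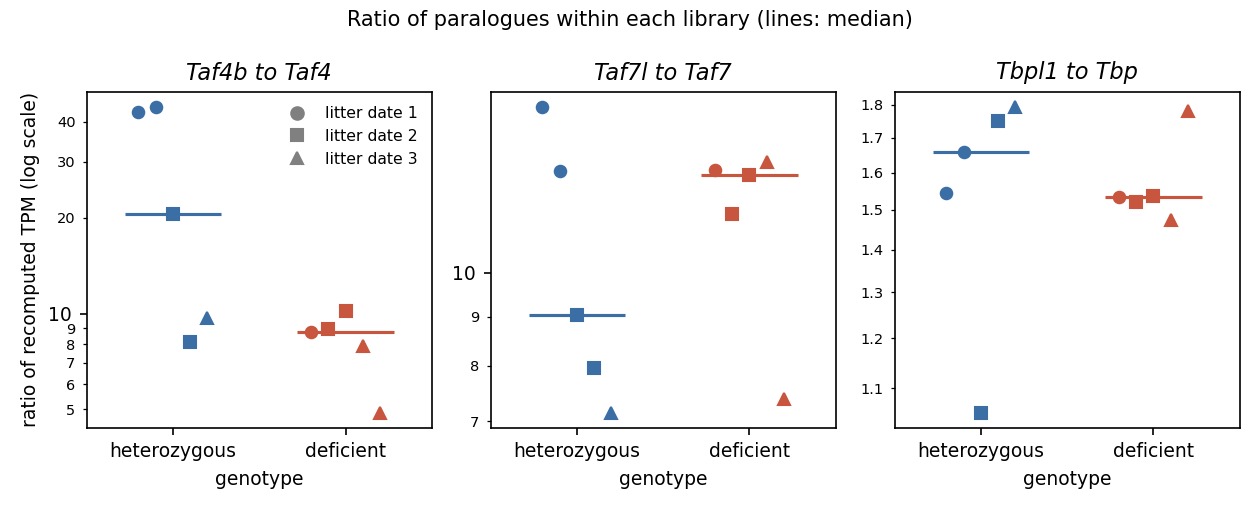
Ratio of recomputed TPM between paralogues in each library (log axes), by genotype and litter date (shape), with the median as a line. The Taf4b to Taf4 ratio spans 8.15 to 44.5 in heterozygous and 4.89 to 10.2 in deficient libraries, and the genotypes overlap in each of the ratios shown.

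Taf12 encodes the histone-fold partner shared by TAF4 and TAF4b, and spans chromosome 4 from 132274375 to 132295766 (plus strand, GRCm38). It was at 179, 129, 232, 127 and 145 CPM in heterozygous 1 to 5, and at 159, 179, 153, 210.3 and 171 CPM in deficient 1 to 5. The genotypes overlapped over nearly the whole range, with heterozygous 3 the highest library. The log2 fold change was 0.10 ± 0.20 (adjusted p = 0.828 in edgeR's quasi-likelihood test), and it was -0.04 without the globin-high libraries. Taf12 thus showed no difference beyond the spread of its libraries. Whether the genotype difference itself differed between Taf4b and Taf12 was not tested.

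Taf7 encodes a subunit that contacts TAF1, and Taf7l is its germ cell paralogue on the X chromosome (134460118 to 134476490, minus strand, GRCm38), best known from the male germline. Taf7 spans chromosome 18 from 37640491 to 37644204 on the minus strand, as a single annotated transcript. Taf7l was at 1675, 1132, 895, 888 and 1004 CPM in heterozygous 1 to 5 and at 1258, 1287, 1146, 1507 and 887 CPM in deficient 1 to 5. The highest and the near-lowest values were both in heterozygous libraries, and the genotypes overlapped. Taf7 was at 166, 131, 146, 164 and 207 CPM in heterozygous 1 to 5 and at 145, 165, 133, 170.1 and 177 CPM in deficient 1 to 5, again overlapping. The log2 fold changes were 0.12 ± 0.24 for Taf7l (adjusted p = 0.827) and -0.04 ± 0.18 for Taf7 (adjusted p = 0.928) in edgeR's quasi-likelihood test.

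The ratio of Taf7l to Taf7 in TPM was 14.9, 12.7, 9.03, 7.97 and 7.15 in heterozygous 1 to 5. In deficient 1 to 5 it was 12.8, 11.5, 12.6, 13.0 and 7.39. The 3 globin-high libraries had the 3 lowest ratios of all 10 libraries. The mean log2 ratio differed between genotypes by 0.18 (exact permutation p = 0.476, adjusted 0.794). The part of the erythroid signal in the low ratios was not tested.

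Taf9b and Taf9 encode interchangeable histone-fold subunits that TFIID shares with the coactivator SAGA. Taf9b spans the X chromosome from 106206883 to 106221158 (minus strand, GRCm38). It was at 210.5, 259.7, 323, 249 and 281 CPM in heterozygous 1 to 5. In deficient 1 to 5 it was at 182, 181, 228, 178 and 170.0 CPM. All deficient libraries except deficient 3 lay below all heterozygous ones, so the genotypes overlapped by 1 library. The log2 fold change was -0.49 ± 0.18 (adjusted p = 0.206 in edgeR's quasi-likelihood test). The log2 CPM difference was -0.36, -0.48 and -0.69 within litter dates 1, 2 and 3, lower on each date. It was -0.46 without the globin-high libraries, and the authors' deposited table gave -0.49 with an adjusted p of 0.0609.

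Taf9 (chromosome 13, 100651579 to 100656060, plus strand, GRCm38) had only 2 to 10 counts per library, 0.0930 to 0.465 CPM. This low value cannot be read as a low Taf9 transcript level. In GENCODE M21, 1564 of the 2120 exon bases of Taf9, or 73.8%, are also exon of Ak6, an adenylate kinase gene on the same strand, which leaves 556 bases of its own. Ak6 had 141 to 842 counts per library. In addition, 3 processed pseudogenes matched Taf9 at 95.6% to 98.5% identity over 626 bases or more. How reads in exons of several genes, or with several matches, were counted is not stated in any source used here, and what part of Taf9 went uncounted cannot be told apart from low expression. No ratio of Taf9b to Taf9 is read from these counts.

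**Figure D4:**
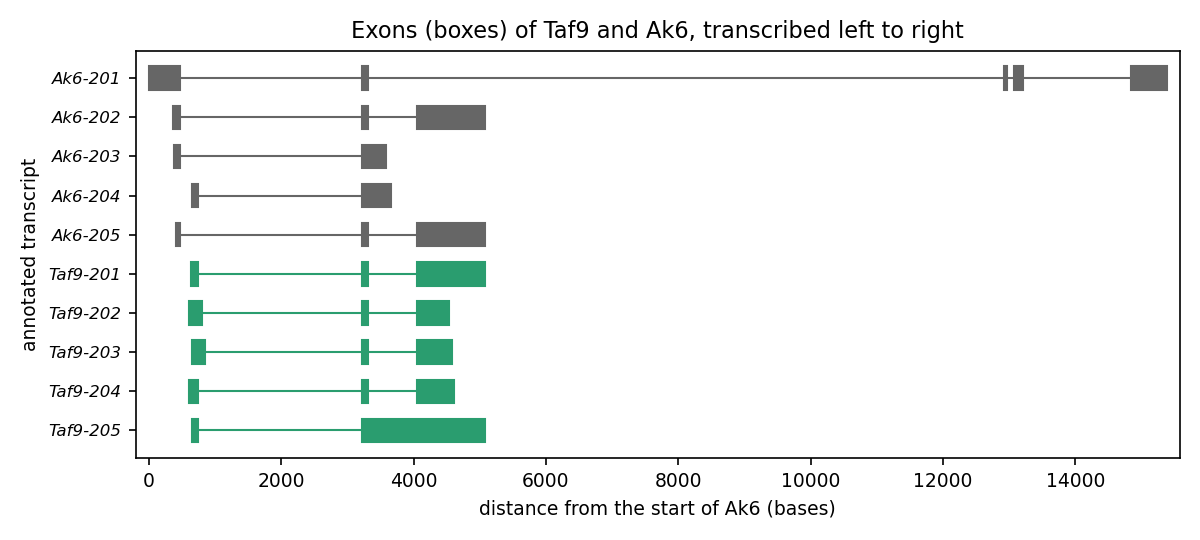
Annotated exons (boxes) of the 5 Ak6 and 5 Taf9 transcripts in GENCODE M21, by distance in bases from the start of Ak6, both transcribed from left to right. The middle and last exons of Taf9 coincide with exons of Ak6, and its first exon does so in part. Of its 2120 exon bases, 556 belong to Taf9 alone, and 397 of these lie between the middle and last exons, in transcript Taf9-205.

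Tbp encodes the TATA-binding protein itself and spans chromosome 17 from 15499888 to 15528379 (plus strand, GRCm38). It was at 121, 118.5, 203, 127 and 131 CPM in heterozygous 1 to 5. In deficient 1 to 5 it was at 100.2, 117.6, 91.0, 107 and 108 CPM. By CPM all deficient libraries lay below all heterozygous ones, by under 1 CPM at the closest pair, and heterozygous 3 stood far above the rest. Such separation in the lower direction was found for 307 of 19244 genes, or 1.6%. It did not hold on the other scales. By recomputed TPM heterozygous 1 was at 23.1 and deficient 2 at 23.3, and by deposited TPM heterozygous 1 was at 126 and deficient 5 at 142, so that the genotypes overlapped. The log2 fold change was -0.42 ± 0.19 (adjusted p = 0.285 in edgeR's quasi-likelihood test). Within litter dates 1, 2 and 3 the log2 CPM difference was -0.26, -0.63 and -0.28.

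Tbpl1 encodes TLF (also called TRF2), a TBP relative that does not bind the TATA box, and spans chromosome 10 from 22703879 to 22731938 (minus strand, GRCm38). It was at 45.0, 47.3, 51.7, 53.7 and 56.6 CPM in heterozygous 1 to 5, the narrowest spread of the tested genes in that genotype at a coefficient of variation of 9.21%. In deficient 1 to 5 it was at 37.1, 43.1, 33.7, 38.0 and 46.1 CPM. Only deficient 5, a globin-high library, reached above the lowest heterozygous value. The log2 fold change was -0.36 ± 0.16 (adjusted p = 0.283 in edgeR's quasi-likelihood test). It was -0.31, -0.46 and -0.43 within litter dates 1, 2 and 3 in log2 CPM, and -0.34 without the globin-high libraries, which had the highest Tbpl1 of their genotype in both genotypes.

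**Figure D5:**
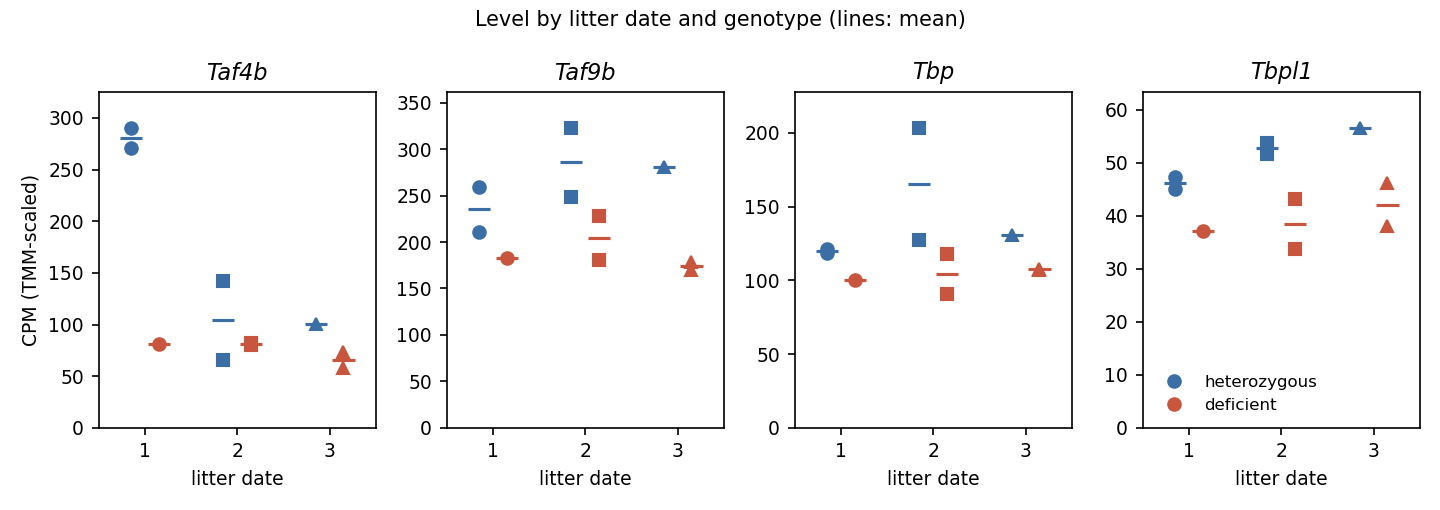
CPM of the 4 genes with an unadjusted p under 0.05 by litter date, with heterozygous libraries in blue, deficient libraries in red and a line at each mean. The Taf4b gap is widest on litter date 1, where the heterozygous libraries stand at 271 and 290.2 CPM, whereas Taf9b, Tbp and Tbpl1 have a lower mean in deficient libraries on each date.

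Tbpl2, the oocyte-specific TBP relative of growing oocytes (chromosome 2, 24071721 to 24096595, minus strand, GRCm38), had 0 counts in 9 libraries and 4 counts in heterozygous 5, or 0.183 CPM. A count of 0 allows up to 0.130 to 0.184 CPM per library (3 counts), for counting error only. In heterozygous 5 itself this bound was 0.137 CPM, so its 4 counts lay little above what a 0 allows. Heterozygous 5 is also the library with the highest summed oocyte growth markers. The ratio of Tbpl1 to Tbp in TPM lay between 1.05 and 1.79 for heterozygous libraries and between 1.47 and 1.78 for deficient ones. Its mean log2 value differed between genotypes by 0.03 (exact permutation p = 0.929, adjusted 0.992). The size of this ratio rests on the length assigned to Tbp: a single transcript of 12794 bases sets the exon length of 13576, and the next longest has 2067 bases. With 2067 bases Tbp would stand at a median of 152.5 TPM, above Tbpl1.

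The exons of 3 members overlap another gene on the opposite strand. Tbp shares 2582 exon bases, 19.0% of its own, with Pdcd2, and these are 100% of the exon bases of Pdcd2, which was listed at 0 in all 10 libraries. Tbpl1 shares 407 bases (12.4%) with Slc2a12 and Taf4 shares 62 (1.34%) with 4921531C22Rik. Without the strand setting of the counting, reads from such exons cannot be assigned to either gene, and their part in the Tbp and Tbpl1 values was not tested.

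The start regions of the 3 lower genes other than Taf4b, and of Taf7l as the most abundant member, are shown as those of the members described above by a lower value or by the highest level. The sequences are RefSeq windows (GRCm38.p6) from 250 bases before to 50 bases after an annotated start. They are given 5′ to 3′ on the strand of the gene. Windows of 8 of the 10 members were examined. Those of Taf4b and Taf7 were left out, so nothing is said here about their start regions. Capitals mark matches on either strand to 3 motifs. The TATA box was searched as TATAAA and is held by 13.6% of 32851 such windows. The CCAAT box was searched by the letters of its name and is held by 37.4%. The GC box was searched as GGGCGG and is held by 35.7%. Taf9b has a second annotated start, whose window held none of the 3 motifs at a GC content of 56.7% and is not printed.
Taf9b, chrX:106221109-106221408, minus strand: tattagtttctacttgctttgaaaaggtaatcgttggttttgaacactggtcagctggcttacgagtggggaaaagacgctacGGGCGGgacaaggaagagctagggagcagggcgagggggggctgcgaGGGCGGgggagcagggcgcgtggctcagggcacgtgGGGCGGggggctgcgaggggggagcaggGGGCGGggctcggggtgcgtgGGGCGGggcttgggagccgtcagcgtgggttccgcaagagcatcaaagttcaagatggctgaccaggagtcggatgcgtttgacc
Tbp, chr17:15499638-15499937, plus strand: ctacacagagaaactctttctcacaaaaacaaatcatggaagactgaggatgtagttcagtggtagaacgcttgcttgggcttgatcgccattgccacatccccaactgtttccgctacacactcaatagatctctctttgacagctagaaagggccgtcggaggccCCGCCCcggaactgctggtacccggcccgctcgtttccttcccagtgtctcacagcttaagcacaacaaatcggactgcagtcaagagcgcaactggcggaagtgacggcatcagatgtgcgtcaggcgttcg
Tbpl1, chr10:22731398-22731697, minus strand: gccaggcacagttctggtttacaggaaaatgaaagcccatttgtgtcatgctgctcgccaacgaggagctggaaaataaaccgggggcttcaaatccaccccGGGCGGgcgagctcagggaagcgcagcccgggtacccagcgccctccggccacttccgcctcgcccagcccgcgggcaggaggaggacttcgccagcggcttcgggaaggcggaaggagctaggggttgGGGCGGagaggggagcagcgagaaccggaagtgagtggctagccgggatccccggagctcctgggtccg
Taf7l, chrX:134476441-134476740, minus strand: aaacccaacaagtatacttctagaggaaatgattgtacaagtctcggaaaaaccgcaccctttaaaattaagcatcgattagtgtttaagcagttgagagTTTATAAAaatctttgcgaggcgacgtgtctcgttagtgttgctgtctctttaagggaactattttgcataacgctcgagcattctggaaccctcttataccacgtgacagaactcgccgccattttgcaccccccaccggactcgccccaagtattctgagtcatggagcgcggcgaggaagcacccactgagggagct

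The printed windows of Taf9b, Tbp and Tbpl1 held GC boxes and no match to the other motifs, with 5 matches in Taf9b, 1 in Tbp and 2 in Tbpl1. Their GC content was 64.0%, 53.3% and 66.0%, against a median of 52.7% over all windows. The Taf7l window had a GC content of 47.0% and 2 overlapping TATA box matches, at position -148 on the plus and -150 on the minus strand of the window, with no GC box. GC boxes were not particular to the lower genes. The window of Taf4, whose log2 fold change was 0.31, held 6 GC boxes and 2 CCAAT boxes at a GC content of 77.3%, and the 2 windows of Taf9 held 3 and 2 GC boxes. The windows of Taf12 and Tbpl2 held none of the 3 motifs. A match is a description of the letters and not a binding site.

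Other genes of the TFIID pathway showed values in both directions. Of 9 TFIID core subunits without a counterpart above, 4 were lower and 5 higher and none was called, with a median log2 fold change of 0.08. The 3 with the smallest p were Taf5, a scaffold subunit with WD repeats, Taf13 and Taf1, the largest subunit. Taf5 had a mean of 132 ± 58.6 CPM over heterozygous and 277 ± 46.4 CPM over deficient libraries (SD, n = 5 each). Its log2 fold change was 1.08 ± 0.30 (adjusted p = 0.151 in edgeR's quasi-likelihood test). Taf13 was at a log2 fold change of -0.52 (adjusted p = 0.231) and Taf1 at 0.50 (adjusted p = 0.270) in the same test.

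Of 14 TBP partners and subunits of other TBP complexes, 11 were lower and 3 higher, none called, with a median of -0.14. Over all genes tested, 51.1% were lower. An unadjusted edgeR p under 0.05 was found for 1 lower and 1 higher gene of this list. The smallest p-values belonged to Btaf1, the ATPase that removes TBP from DNA, Gtf2b, which bridges TBP and polymerase, and Gtf2a1l, a germ cell form of TFIIA. Their log2 fold changes were 0.71, -0.65 and -1.18, with adjusted p of 0.226, 0.241 and 0.356 in edgeR's quasi-likelihood test. Of 18 subunits of SAGA, the other complex of the TAF9 proteins, 12 were lower and 6 higher, none called, with a median of -0.14. An unadjusted edgeR p under 0.05 was found for 5 lower and 1 higher SAGA gene, against 9.13% lower and 7.45% higher over all genes. Tada2b was at 0.89 (adjusted p = 0.166), while Supt20 and Taf5l were at -0.60 and -0.46 (adjusted p = 0.227 and 0.245) in the same test. Without deficient 3 the SAGA median was -0.33, and without the globin-high libraries the TFIID core median was -0.19.

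The 5 genes most like Taf4b over the 10 libraries, by Pearson correlation of log2 CPM among 13585 genes, were Nhlrc2 (0.87), Gm15163 (0.87), Dapp1 (0.86), Cwc22 (0.84) and Map2k3 (0.83). With the genotype means removed, the same correlations were 0.84, 0.89, 0.75, 0.71 and 0.70. The points are 10 libraries that share litter dates and depth, and Taf4b is high mainly in heterozygous 1 and 2.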

How the data were processed

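The authors deposited counts per gene for each of the 10 libraries, for which the submitters' processing notes name GRCm38, HISAT2 2.1.0 as aligner, Subread 1.6.2 with featureCounts, and Trim Galore 0.5.0; no source used here gives the strand, multi-mapping or overlap settings. The authors also deposited TPM values, for which the notes name StringTie 1.3.3b. They were checked against the exon lengths of GENCODE M21, whose gene coordinates match 99.54% of the deposited ones. Up to a scaling factor per library they equal count over the text rank of exon length, so TPM was recomputed here from the counts and lengths. The authors' deposited comparison holds DESeq2 log2 fold changes with standard errors, scores (Wald statistic and mean normalised count), p-values and adjusted p-values, per the file headers.

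Counts of 5 heterozygous and 5 deficient libraries went into edgeR 4.0.16 under R 4.3.3 (quasi-likelihood test, TMM scaling, expression filter, Benjamini-Hochberg over 19244 genes, called under 0.05). CPM uses TMM-scaled library sizes, and depth limits genes of a few counts. Genes without a symbol took 0.0632% to 0.0945% of the counts. Paralogue ratios of log2(TPM + 0.1), planned on the deposited TPM, were tested on recomputed TPM by exact two-sided permutation. The members and lists were chosen with earlier results of these data known. The rule named every member, the 3 genes of smallest p of each list and the 5 genes most like Taf4b. Stra8, Rec8, Nobox and Sohlh1 were picked beside it. Alternatives were other scalings and filters, DESeq2 1.42.0, limma 3.58.1 (voom with quality weights; log2 TPM with pseudocounts of 1 and 0.1), models with litter date or with replicate number, and libraries, litter dates or the globin-high libraries left out. Limma on recomputed TPM and ratios of deposited TPM were added after the data were seen. The main fit was tested on counts simulated with the means, library sizes and dispersions of these libraries. It called 16% of 2-fold and 76% of 4-fold changes, and 0.0158% of unchanged genes, so most 2-fold differences would be missed.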

Additional observations from a re-analysis of the deposited data

Results flagged for a closer look

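In groups of 5 libraries, 26 groups of values were checked for a library far from the others, meaning a gap to its nearest neighbour of over 0.71 of the group's range. For independent groups of normally spread values chance flags about 1 in 20, and 6 values stood out. These groups are not independent, since Tbp enters both its own CPM and a ratio. Tbpl2, with counts in heterozygous 5 only, was flagged of necessity. The number of flags is therefore no measure of an excess. Deficient 3 was high for Taf9b, at 228 CPM, and heterozygous 3 was high for Tbp, at 203 CPM. Heterozygous 5 was the only library with counts of Tbpl2, at 0.183 CPM, which is 4 counts. In the log2 ratio of Taf7l to Taf7, deficient 5 was low at 2.88. In the log2 ratio of Tbpl1 to Tbp, heterozygous 3 was low at 0.0762 and deficient 5 was high at 0.829. Deficient 5 is globin-high, with 1605 CPM of erythroid markers, and the part of this in both ratios was not tested.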

How the results depend on the processing

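The number of genes called was 0 in 18 of the 25 alternative fits and moved to 251 without a low-count filter, 649 with DESeq2, 510 with limma voom and quality weights, 1 with limma on recomputed TPM and 1 with the replicate block. Leaving out each library gave 0 to 606, the highest without heterozygous 1. Taf4b passed the threshold without the low-count filter (-1.24, adjusted p = 0.0408, edgeR) and with DESeq2 (-1.23, adjusted p = 0.0343), in which the median of all genes was 0.12 and 0.13. In all 25 alternatives Taf4b (-1.63 to -0.48), Taf9b (-0.60 to -0.41), Tbp (-0.53 to -0.23), Tbpl1 (-0.47 to -0.29) and Taf4 (0.13 to 0.45) kept their direction. Adjusted p ranged from 0.0343 to 0.961 for Taf4b and from 0.0651 to 0.961 for Taf9b. Near-zero values turned: Taf7 to 0.0567 without the globin-high libraries (-0.117 to 0.0585 as each library was left out, above 0 without heterozygous 5 or deficient 3), Taf7l to -0.0570 without litter date 2, and Taf12 to -0.0362 without litter date 3 and -0.0398 without the globin-high libraries. The Tbpl1 to Tbp log2 ratio ran from -0.105 to 0.0858 as each library was left out, negative without heterozygous 3 or deficient 5. The Tbpl2 to Tbp difference, with 9 libraries at 0, was -0.172 on counts and ran from -0.222 to 0.489 as each library was left out. Where Tbpl2 is 0 this ratio holds only the pseudocount and Tbp, so no difference is read from it. The Tbpl2 to Tbp and Taf9b to Taf9 ratios still count among the 5 ratios of the adjustment. The Taf4b to Taf4 difference held its direction in 15 alternatives (-1.92 to -1.03). Replicate numbers do not pair the libraries, since same-numbered libraries differ in litter date for numbers 2 and 4 and their deviations correlate at -0.31 to 0.64; with the replicate block Taf4b was at -1.01 (adjusted p = 0.128). The cause of these moves was not tested. Depth limits Taf9 and Tbpl2, at 0 to 10 counts.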

Other observations

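Over the 10 libraries, Taf4 was inversely related to Taf4b in log2 CPM (Pearson r = -0.80, permutation p = 0.00503, adjusted 0.0352 over 7 members; Spearman rho = -0.67, permutation p = 0.0400, adjusted 0.274). This relation was singled out after the values were seen. Without heterozygous 1 and 2, the libraries farthest from the Taf4b median, r was -0.57, and with genotype means removed it was -0.68. The libraries share litter dates, and the 3 globin-high ones hold the highest Taf4 of their genotype and the lowest Taf4b. For the other 6 tested members, adjusted permutation p for r ran from 0.514 to 0.916.

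The deposited TPM of 20083 genes, 44.9% of those with a count, was over 1.5 times off the count per exon length relative to the median gene. Over genes, the length implied by the deposited TPM had a Spearman correlation of 0.0943 with exon length and of 1.0 with the text rank of that length. Within a gene the rank is a constant, so fold changes between libraries are touched only through the scaling of each library.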
